A study of Mus musculus with 12 samples.

Results

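The genes described here are 10 mouse transcription factor genes of the osteoblast lineage: Runx1, Runx2 and Runx3, their partner Cbfb, the zinc finger gene Sp7, and the homeobox genes Dlx3, Dlx5, Dlx6, Msx1 and Msx2. They were taken by name out of 21883 protein-coding genes, and a peak was given to a gene where it overlapped the RefSeq span of GRCm38 or the 5 kb on either side by at least 1 bp. The peaks come from chromatin immunoprecipitation with an antibody against MACF1, a cytoskeletal crosslinker of actin and microtubules, in MC3T3-E1, a mouse osteoblast line. The knockdown group held 3 immunoprecipitates of MC3T3-E1 cells with MACF1 knockdown and the control group held 3 of MC3T3-E1 cells labelled as control, each carrying the label 1, 2 or size3 and each called against its own input of the same genotype. The same antibody was listed for all 6 libraries, in lots that the labels do not tie to single libraries. How MACF1 was knocked down is not stated by the labels. They also do not say if cultures were separate, and p-values therefore measure only the spread between these libraries, which may be technical. Peaks on genomic DNA do not measure expression, so neither the knockdown nor the cell type was checked from these data.

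RUNX proteins bind DNA through the Runt domain as dimers with CBFB, which binds no DNA itself. RUNX2 is the factor without which osteoblasts do not form, SP7 (osterix) acts after it, and DLX and MSX homeodomain proteins act around them in bone and in the skeleton of the face. Runx genes are known to be read from a distal and a proximal promoter, which give proteins with different beginnings.

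Depth and list length differed between libraries. Reads after duplicate removal were 5575205 to 18454330 in the knockdown and 10698067 to 33085606 in the control immunoprecipitates. The share of redundant reads was 0.51, 0.65 and 0.02 in knockdown 1, 2 and size3, against 0.25, 0.16 and 0.01 in control 1, 2 and size3. The knockdown lists held 4513 to 21398 peaks and the control lists 198 to 2196. The median false discovery rate of the peak caller, the share of peaks found when immunoprecipitate and input were swapped, was 2.71% in knockdown 1 and 4.37% in knockdown size3, but 100% in knockdown 2, and 85.3% to 100% in the control lists. A gene without a peak is a gene where nothing passed the caller's p of 1e-05, not one without reads. The part of depth and of redundant reads in the differences below was not tested.

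Of the 40 peaks at the bone factors, 39 came from knockdown libraries and 1 from a control library, and 33 lay at Runx1, Runx2 or Runx3. A peak was present at 6 of 10 genes in knockdown 1, where 43.7% of all protein-coding genes had one, and at 6 of 10 in knockdown size3, where 35.4% did. In knockdown 2 it was 3 of 10 genes, against 7.95% of all genes. Control 1 and control 2 had a peak at 0 of 10 genes each, with 1.38% and 0.315% of all genes as background, and control size3 at 1 of 10, with 5.49%. Any knockdown library had a peak at 7 of 10 genes, beside 57.7% of all genes, and any control library at 1 of 10, beside 6.70%. Cbfb, Dlx5 and Msx2 had no peak in any of the 6 lists, as did 41.3% of all genes. Longer genes were hit more often: in knockdown 1 the share was 77.6% over 100 kb, 52.7% between 20 and 100 kb and 31.0% under 20 kb, and in knockdown size3 it was 68.1% over 100 kb. In knockdown 2 it was 30.8% over 100 kb, 9.69% between 20 and 100 kb and 2.14% under 20 kb. The factors with a knockdown 2 peak were Runx1 and Runx2, both over 100 kb, and Dlx3, under 20 kb. Of the 6 factors under 20 kb, 3 had a peak in knockdown 1 and 3 in knockdown size3, where 23.6% of genes of that length did.

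**Figure D1:**
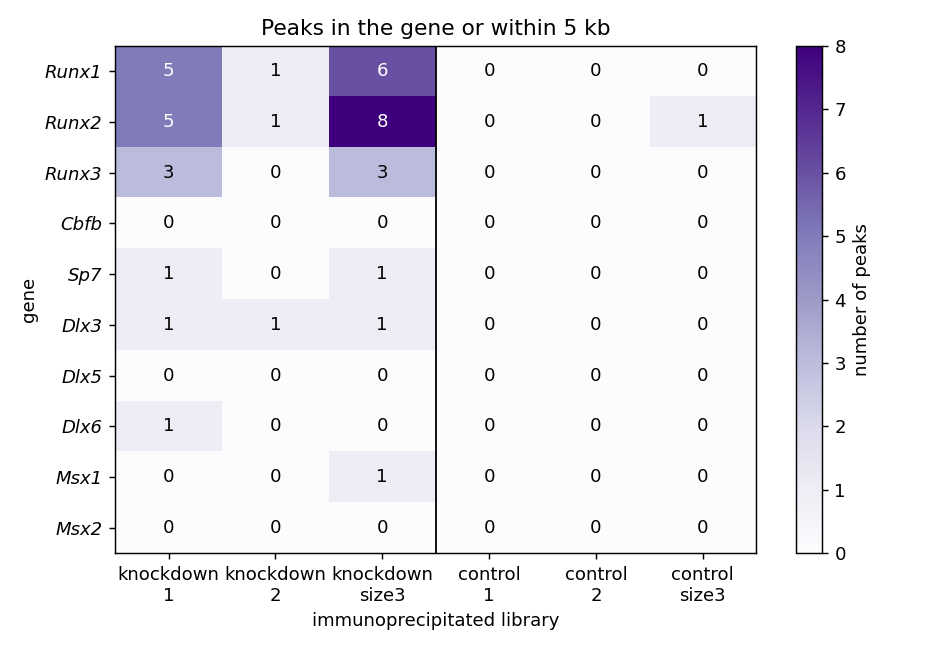
Number of peaks in the gene or within 5 kb for each of the 10 bone factors (rows) in the 3 knockdown and 3 control immunoprecipitates (columns, knockdown left of the line). Runx1, Runx2 and Runx3 hold between 3 and 8 peaks in knockdown 1 and knockdown size3, and Runx2 in control size3 holds the only control peak.

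Runx1, a regulator of blood cell formation that is also active in skeletal precursors, spans 224609 bp on chromosome 16 (92601466 to 92826074, GRCm38). It held 5, 1 and 6 peaks in knockdown 1, 2 and size3, against 0, 0 and 0 in control 1, 2 and size3. Every knockdown library was above every control library, which was so for 2.55% of all protein-coding genes and for 14.5% of those over 100 kb. Means were 4 ± 2.65 peaks in knockdown and 0 in control libraries (SD, n = 3 each; exact two-sided permutation p = 0.1, adjusted p = 1). That p is the smallest that 20 assignments of 3 against 3 libraries allow, so no gene could pass 0.05, and 0 of 21883 genes did at unadjusted or Benjamini-Hochberg adjusted p. Among genes over 100 kb, 15.9% had at least as many peaks as Runx1 in knockdown 1, 30.8% in knockdown 2 and 8.32% in knockdown size3.

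The widest Runx1 peak covered the proximal start. In knockdown 1 it ran from 92696786 to 92700207, 3422 bp with 236 reads and a fold enrichment over input of 3.61, and its summit lay 1539 bp upstream of the start at 92697329. The other 4 peaks of that library held 22 to 63 reads. Of the Runx1 peaks, that of knockdown size3 at 92778753 to 92779408 ranked highest by fold enrichment within its own list. It held 18 reads at a fold enrichment of 13.9, the 98.2nd percentile. The fold enrichment of the peak on the proximal start was at the 15.9th percentile of the knockdown 1 list. Knockdown 1 and knockdown size3 shared a single region of the gene, at 92666841 to 92668097, where the summits lay 25 bp apart. The knockdown 2 peak at 92799529 to 92799981 held 12 reads at a false discovery rate of 100% and overlapped no other peak. The distal start at 92826074 had no peak in any library.

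Runx2, the master factor of the lineage, spans 318811 bp on chromosome 17 (44495987 to 44814797). It held 5, 1 and 8 peaks in knockdown 1, 2 and size3, against 0, 0 and 1 in control 1, 2 and size3. The groups touched, since knockdown 2 and control size3 each had 1 peak. Means were 4.67 ± 3.51 peaks in knockdown and 0.333 ± 0.577 in control libraries (SD, n = 3 each; exact permutation p = 0.2, adjusted p = 1). The difference within a label, knockdown minus control, was 5 (label 1), 1 (label 2) and 7 (label size3). Of the genes over 100 kb, 15.9% had at least as many peaks as Runx2 in knockdown 1, 30.8% in knockdown 2 and 3.50% in knockdown size3.

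The knockdown 1 peak with most reads at any of the 10 genes lay in Runx2 at 44733531 to 44736973, 3443 bp with 308 reads and a score of 108, the peak caller's p on a scale of 10 times its negative log10. Its fold enrichment was low, 3.2, at the 6.32nd percentile of the knockdown 1 list. The peak was 287 bp from a further peak of the same library, at 44737261 to 44738906 with 84 reads, and its summit lay 78262 bp downstream of the distal start at 44814627. No second Runx2 start is listed in the promoter table used here. Knockdown size3 had 4 of its 8 peaks in the downstream part of the gene, at 44496510, 44504469, 44510611 and 44546307, with 18 to 29 reads each. Knockdown 1 had no peak below 44627286. The last of these, at 44546307 to 44547218 with 25 reads, contained the control size3 peak at 44546327 to 44546949, which held 15 reads. Its false discovery rate was 6.87% in knockdown size3 and 91.3% in control size3. A further region was common to knockdown 1 and knockdown size3, at 44776668 to 44777863, with 90 reads and 15 reads. Their summits lay 526 bp apart. This region also lies within the span of Supt3, a gene for a component of the SAGA coactivator complex, as do the knockdown 1 peak at 44784478 and the knockdown 2 peak at 44811517 to 44811864. The knockdown 2 peak, of 10 reads and a fold enrichment of 15.6, had its summit 2878 bp downstream of the distal start.

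Runx3, a factor of cartilage, neurons and T cells, is the short member of the family, with a span of 57346 bp on chromosome 4 (135120645 to 135177990). It held 3, 0 and 3 peaks in knockdown 1, 2 and size3, against 0, 0 and 0 in control 1, 2 and size3. The mean was 2 ± 1.73 peaks in knockdown and 0 in control libraries (SD, n = 3 each; exact permutation p = 0.4, adjusted p = 1), and knockdown 2 overlapped with the control libraries. Per Mb of window, knockdown 1 had 44.5 peaks at Runx3, 21.3 at Runx1 and 15.2 at Runx2, against 16.4 over all genes of 20 to 100 kb and 9.0 over all genes above 100 kb.

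All 3 knockdown 1 peaks at Runx3 were wide. They ran over 3677 bp (135128154 to 135131830, 162 reads), 3808 bp (135150269 to 135154076, 237 reads) and 4880 bp (135162695 to 135167574, 259 reads). Their fold enrichments of 4.07, 4.05 and 3.65 were at the 28.4th, 27.7th and 16.9th percentiles of the knockdown 1 list. With the wide peaks named above at Runx1 and Runx2, 5 of the 16 knockdown 1 peaks at the bone factors were 3 kb or wider, all at Runx genes, where 9.30% of all knockdown 1 peaks were. The middle peak covered the proximal start at 135152545, with its summit 243 bp upstream. Knockdown size3 had no peak there, but its other peaks fell within or across those of knockdown 1: that at 135129692 to 135130278 lay inside the first, and those at 135163205 to 135164151 and 135166902 to 135167968 met the third. The summits did not coincide, lying 1645, 3110 and 886 bp from those of knockdown 1. The overlaps took up 16.0%, 19.4% and 13.8% of the knockdown 1 peak. The distal start at 135120645 had no peak in any library.

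**Figure D2:**
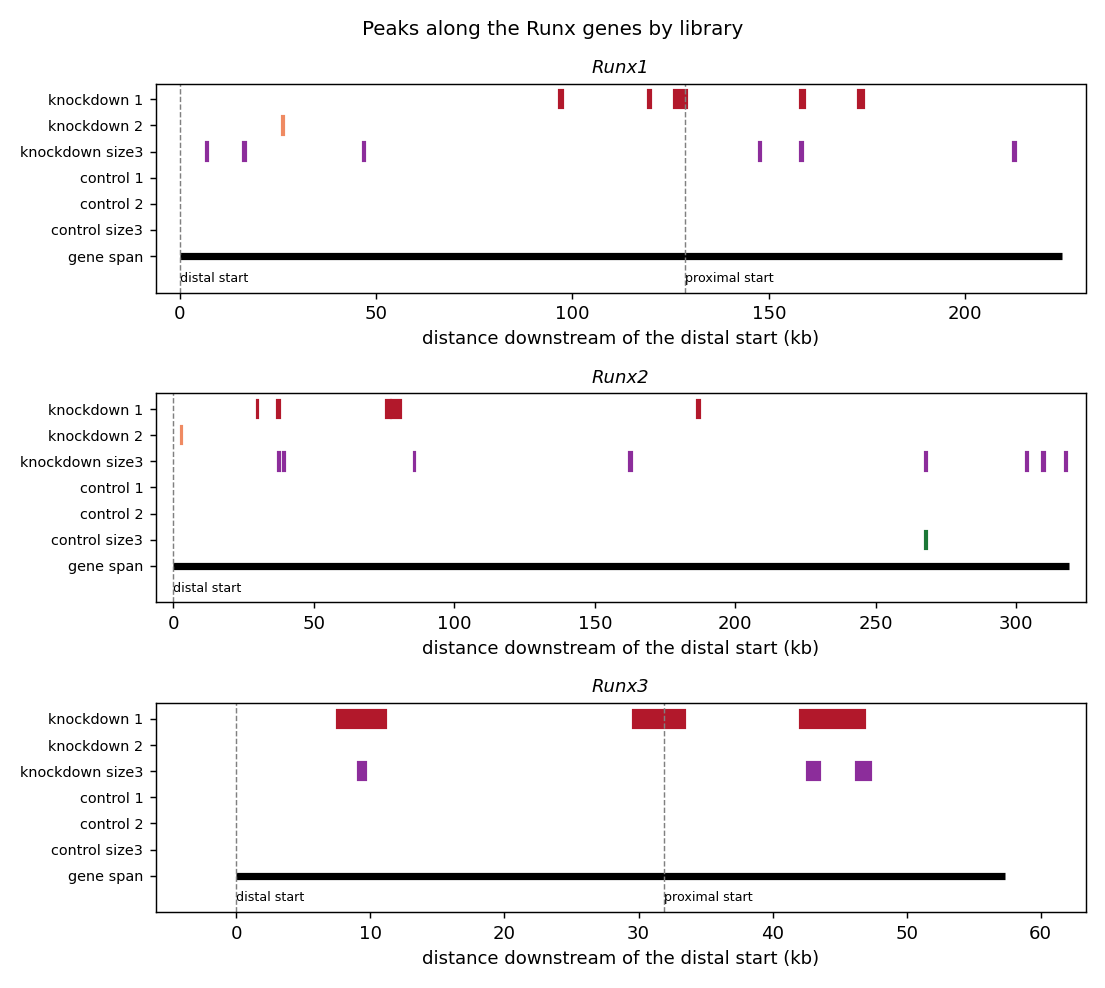
Peaks along Runx1, Runx2 and Runx3 as boxes, by library (rows, knockdown above control), against the distance in kb downstream of the distal start. Dashed lines mark the starts in the promoter table, the black bar is the gene span, and narrow peaks carry an outline so that they can be seen. Knockdown 1 boxes sit on the proximal starts of Runx1 and Runx3, and no box sits on a distal start.

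The promoter sequences of the Runx genes are shown because knockdown 1 had a peak on the proximal starts of Runx1 and Runx3 and no library had one on a distal start. RefSeq sequences of GRCm38.p6 run from 250 bases before to 50 after each start, 5′ to 3′ on the gene's strand, and 8 windows of 6 members could be matched. Capitals mark the RUNX core ACCACA, searched on both strands and found in 15.0% of 21262 promoter windows of protein-coding genes. Both windows that lay under a knockdown 1 peak, the proximal ones at chr16:92697280-92697579 (minus strand) and chr4:135152295-135152594 (plus strand), held no match. Each is 300 bases of a peak of 3422 bp (Runx1) or 3808 bp (Runx3), and the rest of these peaks was not searched. The Runx1 summit lies outside its window.
Runx1 proximal: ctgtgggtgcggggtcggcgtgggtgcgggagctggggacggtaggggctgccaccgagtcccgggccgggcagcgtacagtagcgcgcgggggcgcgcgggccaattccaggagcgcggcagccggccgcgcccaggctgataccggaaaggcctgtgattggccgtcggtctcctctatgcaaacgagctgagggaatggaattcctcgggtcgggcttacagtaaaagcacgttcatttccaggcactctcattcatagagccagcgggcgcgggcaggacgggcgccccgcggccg
Runx3 proximal: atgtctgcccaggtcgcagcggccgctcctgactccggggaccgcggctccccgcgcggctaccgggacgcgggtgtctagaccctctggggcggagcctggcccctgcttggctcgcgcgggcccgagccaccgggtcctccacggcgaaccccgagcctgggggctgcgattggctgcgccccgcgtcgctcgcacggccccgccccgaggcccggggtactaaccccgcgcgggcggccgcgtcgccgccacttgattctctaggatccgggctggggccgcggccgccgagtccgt

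The distal windows, with no peak in any list, read as follows for chr16:92826025-92826324 (minus strand), chr17:44814578-44814877 (minus strand) and chr4:135120395-135120694 (plus strand).
Runx1 distal: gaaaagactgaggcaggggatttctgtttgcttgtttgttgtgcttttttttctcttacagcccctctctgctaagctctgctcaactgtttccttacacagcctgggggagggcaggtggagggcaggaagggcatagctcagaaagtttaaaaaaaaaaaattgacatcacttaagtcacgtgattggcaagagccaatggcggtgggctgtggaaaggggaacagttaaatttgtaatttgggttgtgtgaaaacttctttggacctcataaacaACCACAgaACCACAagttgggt
Runx2 distal: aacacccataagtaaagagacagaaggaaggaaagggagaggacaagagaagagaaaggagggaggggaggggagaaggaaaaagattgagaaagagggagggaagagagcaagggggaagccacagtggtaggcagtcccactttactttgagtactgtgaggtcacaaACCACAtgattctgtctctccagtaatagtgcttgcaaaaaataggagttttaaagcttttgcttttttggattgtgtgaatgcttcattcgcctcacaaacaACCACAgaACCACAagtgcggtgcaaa
Runx3 distal: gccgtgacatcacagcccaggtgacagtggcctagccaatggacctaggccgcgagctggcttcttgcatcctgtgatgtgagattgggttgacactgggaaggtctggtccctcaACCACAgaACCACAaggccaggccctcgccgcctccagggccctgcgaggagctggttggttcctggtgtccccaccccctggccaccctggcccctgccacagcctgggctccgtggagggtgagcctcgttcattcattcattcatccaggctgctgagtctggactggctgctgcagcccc

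These distal windows held 2, 3 and 2 matches, where 1.5% of all windows held 2 or more. They share the 18-base stretch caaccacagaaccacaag, which a search of both strands found in 3 of the 21262 windows, those of the Runx genes themselves. The stretch begins 26 bases after the start in Runx1, 21 after it in Runx2 and 136 before it in Runx3, and it was looked for after the sequences had been seen. A match is a description of these letters and not a site. The proximal windows were rich in CG pairs, with 35 in Runx1 and 45 in Runx3, and the distal ones held 2, 2 and 8.

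A peak of knockdown 1 covered 2 of the 8 promoter windows of the members, where 16.0% of all windows had one. No other library had a peak on any of the 8, beside 0.0235% of all windows in knockdown 2, 7.55% in knockdown size3, 0% in control 1, 0.00470% in control 2 and 0.207% in control size3. The proximal windows had a GC content of 69% in Runx1 and 77.3% in Runx3. The distal windows of Runx1 and Runx2 had 45% and 45.3%, and that of Runx3 had 63.7%. Over all promoters, knockdown 1 covered 27.1% of windows with a GC content of 60% or more and 8.87% of the others. In knockdown size3 these shares were 12.4% and 4.44%, and in control size3 they were 0.228% and 0.193%. High GC content also occurred without a peak: the windows of Cbfb (69.7%), Msx1 (70.0%), Msx2 (61%) and distal Runx3 were above 60% and had no peak. The part of GC content in the Runx peaks was not tested. Of genes with 2 or more listed starts, knockdown 1 had a peak on 20.1% of the most upstream windows and 16.9% of the later ones, and knockdown size3 on 8.33% and 7.61%.

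**Figure D3:**
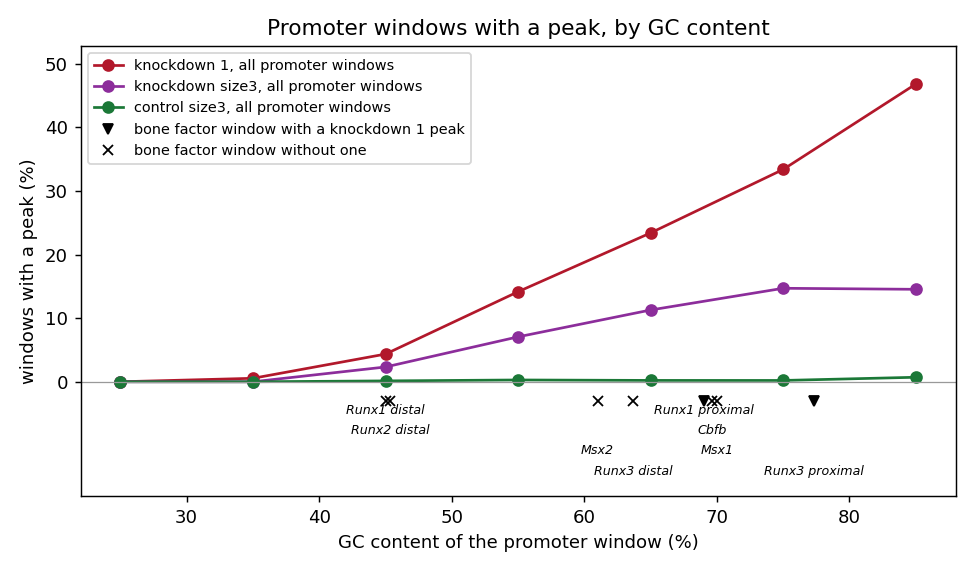
Share of all promoter windows with a peak (vertical, percent) in steps of 10 points of GC content (horizontal, percent) for knockdown 1, knockdown size3 and control size3. Marks under the axis give the GC content of the 8 windows of the bone factors, as triangles where knockdown 1 had a peak and crosses where it had none. The knockdown 1 share is 4.35% in the step that starts at 40% GC and 46.8% in the step that starts at 80%.

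Cbfb, which encodes the shared partner of the RUNX proteins, spans 47316 bp on chromosome 8 (105170674 to 105217989) and had no peak in any library. In knockdown 1 52.7% of genes of 20 to 100 kb had a peak and in knockdown size3 43.5%. The nearest peak to the gene was in knockdown 1, 12082 bp away.

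Sp7, a zinc finger factor needed for bone formation downstream of RUNX2, spans 10433 bp on chromosome 15 (102356603 to 102367035). It held 1, 0 and 1 peaks in knockdown 1, 2 and size3, against 0, 0 and 0 in control 1, 2 and size3 (exact permutation p = 0.4, adjusted p = 1). The knockdown 1 and knockdown size3 peaks were not in the gene but in the flank beyond its upper end, and they coincided. That of knockdown 1 ran from 102370053 to 102371572 with 100 reads and a fold enrichment of 3.58, and that of knockdown size3 from 102370355 to 102371425 with 33 reads and a fold enrichment of 4.33. The smaller lay wholly inside the larger, their summits were 50 bp apart, and no other listed gene overlapped them. Only in the shared Runx1 region did summits of different libraries lie closer together.

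The Dlx genes lie in linked blocks, and the 2 spans of Dlx5 and Dlx6 on chromosome 6 are 9830 bp apart. Dlx3, a factor of bone, teeth and skin (chromosome 11, 95120117 to 95125296), was the only short gene of the 10 with a peak in each knockdown library: 1, 1 and 1 in knockdown 1, 2 and size3, against 0, 0 and 0 in control 1, 2 and size3 (exact permutation p = 0.1, adjusted p = 1). Every knockdown library exceeded every control library here, as in 0.203% of all genes under 20 kb. The peaks did not all meet. That of knockdown 2 at 95121324 to 95121647, with 17 reads, lay inside that of knockdown size3 at 95121249 to 95122441, with 34 reads, and their summits were 92 bp apart. That of knockdown 1, with 66 reads, lay outside the gene at 95126344 to 95127247, 1048 bp from its upper end. The false discovery rate was 2.23% in knockdown 1, 100% in knockdown 2 and 7.17% in knockdown size3. Without knockdown 2, 5 of the 10 factors (Runx1, Runx2, Runx3, Sp7 and Dlx3) and 4744 of all genes had more peaks in every remaining knockdown than in every control library. With peaks of a false discovery rate of at most 5%, 0 factors and 0 genes did over all 6 libraries. Such a gene needs a knockdown 2 peak of that rate, and only 51 of the 4513 knockdown 2 peaks had one.

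Dlx6 (chromosome 6, 6863334 to 6867970) had 1, 0 and 0 peaks in knockdown 1, 2 and size3, against 0, 0 and 0 in the control libraries (exact permutation p = 1). The knockdown 1 peak at 6863192 to 6865534 lay across the lower end of the gene, with 181 reads over 2343 bp, and also overlapped the long noncoding RNA genes Dlx6os1 and Dlx6os2. Dlx5 (6877801 to 6882068), which acts with Dlx6 in the skeleton, had no peak. The Dlx6 peak lay 12267 bp from Dlx5, and the nearest to Dlx5 was a knockdown 2 peak of 10 reads, 10287 bp away.

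The Msx genes encode homeodomain repressors of the skull and teeth. Msx1 (chromosome 5, 37820491 to 37824585) had 0, 0 and 1 peaks in knockdown 1, 2 and size3, against 0, 0 and 0 in the control libraries (exact permutation p = 1). The knockdown size3 peak lay in the flank at 37818886 to 37819765, 726 bp from the gene and 5259 bp downstream of its start, with 26 reads and a fold enrichment of 8.03. Msx2 (chromosome 13, 53466881 to 53472780) had no peak in any library, and its nearest was 103590 bp away, in knockdown 1. At the edge of the 5 kb window, the farthest peaks inside were those of Sp7, 3018 and 3320 bp from the gene, and the nearest outside lay 5883 bp (knockdown size3) and 6134 bp (knockdown 1) from Msx1.

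Between 5 and 50 kb from the genes, a peak was present for 8, 5 and 7 of the 10 factors in knockdown 1, 2 and size3, against 0 in each of control 1, 2 and size3. Over all protein-coding genes these shares were 59.9%, 13.6% and 53.0% in knockdown 1, 2 and size3 and 1.78%, 0.352% and 9.65% in control 1, 2 and size3. The control counts of 0 are near that background. Sp7 had 1, 1 and 7 such peaks in knockdown 1, 2 and size3. Dlx5 had 3, 3 and 1 in knockdown 1, 2 and size3, the Dlx6 peak of knockdown 1 among them, and the zones of Dlx5 and Dlx6 overlap. The nearest of knockdown 2, at 6892355 to 6892679, had 10 reads, a fold enrichment of 20.8 and a false discovery rate of 100%. Msx1 had 3, 0 and 2, Dlx3 had 2, 1 and 1 and Cbfb had 2, 0 and 0 in knockdown 1, 2 and size3. Msx2 had none in any library. Near Msx1 the knockdown 1 peak at 37830719 to 37832713 and the knockdown size3 peak at 37830468 to 37830942 overlapped.

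Peaks at the bone factors differed in shape between libraries. In knockdown 1 the 16 peaks were 470 to 4880 bp wide with a median of 1523 bp and 16 to 308 reads, against a median of 990 bp and 46 reads over its whole list. In knockdown size3 the 20 peaks were 422 to 1193 bp wide with a median of 710 bp and 12 to 34 reads, against 647 bp and 17 reads over its list. The 3 peaks of knockdown 2 were 324 to 453 bp wide and held 10 to 17 reads. Fold enrichment ran the other way, at 3.07 to 6.79 in knockdown 1, 4.33 to 13.9 in knockdown size3 and 7.88 to 15.6 in knockdown 2. Scores and folds are those of the authors' caller and describe peaks within a list. All 16 knockdown 1 peaks had a false discovery rate of at most 5%, as did 12 of the 20 of knockdown size3 and none of the 3 of knockdown 2. Over the whole lists, 21159 of 21398 peaks had such a rate in knockdown 1, 10161 of 17592 in knockdown size3 and 51 of 4513 in knockdown 2. Peaks of 3 kb or more made up 0.0886% of the knockdown 2 list and 0.273% of the knockdown size3 list.

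**Figure D4:**
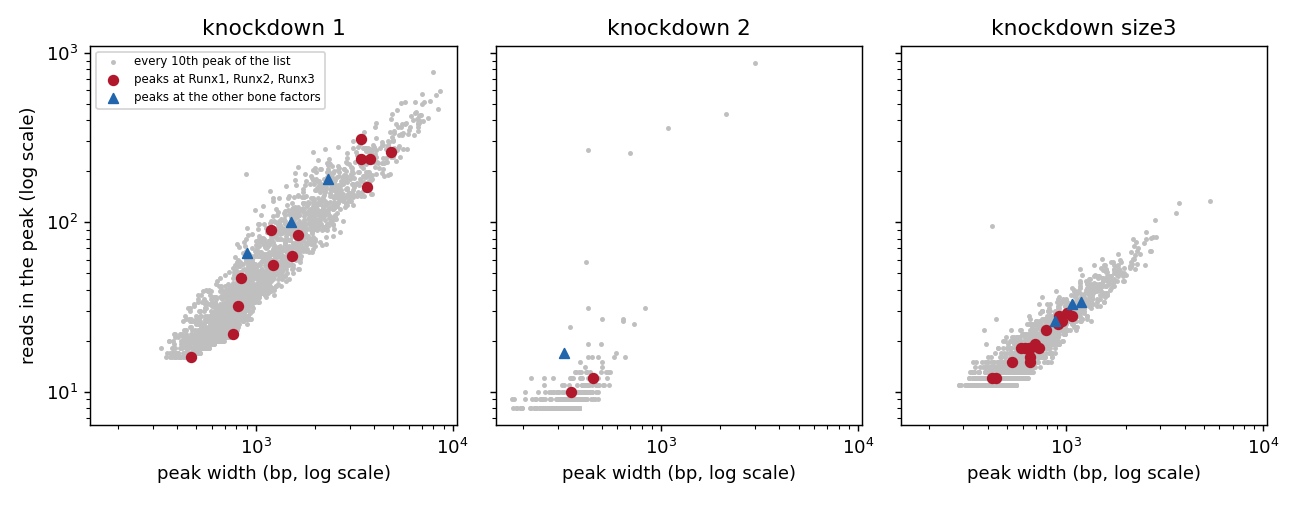
Reads in each peak against peak width, both on log scales, for knockdown 1, knockdown 2 and knockdown size3, with peaks at Runx1, Runx2 and Runx3 as circles, at the other bone factors as triangles and every 10th peak of the list in grey. In knockdown 1 the Runx peaks run from 470 to 4880 bp, and in knockdown size3 from 422 to 1067 bp.

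Merged over libraries, the peaks formed 32 regions, of which 7 were called in more than 1 library, where 5.06% of all 44133 regions on placed chromosomes were. That share also counts regions away from genes and is not matched for peak width, so it is not from a like set. Of the 7 regions, knockdown 1 with knockdown size3 gave 5, knockdown 2 with knockdown size3 gave 1 (Dlx3) and knockdown size3 with control size3 gave 1 (Runx2). No region was called in 3 libraries. Without knockdown size3 the number was 0, and without knockdown 1 it was 2.

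Of the genes that work with these factors, 3 lists were compared: 70 osteoblast factors and RUNX cofactors, 12 Dlx, Msx and Sp relatives, and 30 targets of RUNX2 and SP7. All matched a gene. None of their genes passed the test across all genes, which could give no p under 0.1. More peaks in every knockdown than in every control library were found for 2 of 70, 1 of 12 and 0 of 30 genes, against 2.55% of all genes. The reverse was found for none of them, and for 0 of all 21883 protein-coding genes. Control 2 had a peak at only 69 of all genes, and no other gene could show the reverse, so its absence says little. A peak in knockdown 1 was present at 52 of 70, 7 of 12 and 17 of 30 genes, beside 43.7% of all genes, and in knockdown size3 at 41, 5 and 13, beside 35.4%. The median gene span was 37883 bp in the list of 70, 6080 bp in the list of 12 and 15455 bp in the list of 30, beside 17170 bp over all genes, and longer genes held peaks more often. The median difference in mean peak number, knockdown minus control, was 0.667, 0.667 and 0.333, beside 0.5 for the bone factors and 0.333 for all genes.

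Among the cofactors and osteoblast factors, Sox5, a cartilage factor with a span of 953863 bp, had 8, 7 and 6 peaks in knockdown 1, 2 and size3, against 0, 1 and 2 in control 1, 2 and size3. Wwtr1, which encodes the coactivator TAZ, a partner of RUNX2, had 3, 3 and 3 in knockdown 1, 2 and size3, against 0, 0 and 0 in control libraries. Both had an exact permutation p of 0.1. Snai1, Prrx2 and Lef1, genes of transcription factors of mesenchyme and of Wnt signalling, each had a peak in knockdown 1, knockdown size3 and control size3. Among relatives, Sp3, a GC-box factor, had 1 peak in each knockdown library and none in control libraries. Dlx2, Sp6, Sp1 and Sp9 had peaks in 1 or 2 knockdown libraries. Among targets, the growth factor receptor gene Fgfr3 had 1, 0 and 2 peaks in knockdown 1, 2 and size3, against 0, 0 and 2 in control 1, 2 and size3. Vegfa, the vessel growth factor gene, the collagenase gene Mmp9, the parathyroid hormone receptor gene Pth1r and Fgfr1 had peaks in knockdown 1 and knockdown size3 and in no other library.

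By the distance between peak numbers over the 6 libraries, the genes most like Runx1 were Galnt18, with the same numbers, and Phactr3 and Ppm1l, at a distance of 1. Runx2 was matched exactly by no gene, and Scfd2, Fstl4 and Limch1 came nearest, at distances of 1, 1 and 1.41. The numbers of Dlx3 were shared with 100 genes, and those nearest to it in length were Atp5g1, Marcksl1 and Lce1m.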

How the data were processed

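Chromatin immunoprecipitation sequencing was analysed from 6 peak lists, 1 per immunoprecipitate, each called against its own input without pooling. Trimming with cutadapt and alignment with Bowtie2 to GRCm38 are named in the submitters' processing notes. The file headers name MACS 1.4.2 as the caller, its p threshold as 1e-05 and its limit on duplicates as 1 read at a position. The deposited counts are whole reads per peak. The deposited score is the caller's p-value as 10 times its negative log10, the deposited fold is the caller's ratio of enrichment over local input background, and the deposited false discovery rate is a percent. Reads after duplicate removal per library were 18454330, 5575205 and 8175173 in knockdown 1, 2 and size3 and 26196138, 33085606 and 10698067 in control 1, 2 and size3.

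Peaks per gene were counted with Python 3.11.15 and pandas 2.3.3 for protein-coding genes of the RefSeq table of GRCm38.p6 on chromosomes 1 to 19, X and Y. Peak numbers of 3 knockdown and 3 control libraries were compared by an exact two-sided permutation test over 20 assignments, adjusted by the Benjamini-Hochberg method over all genes. Counting and test were checked on simulated data. Gene starts came from the RefSeq promoter table, which matched 6 of the 10 members. Exons and introns were not analysed here. All 10 members were named, with at most 5 genes of each further list (by number of libraries with a peak, then peaks per kb) and the 3 genes nearest in peak numbers to each member with peaks in 3 or more libraries. Members and lists were chosen with earlier results of these data known. Alternatives were other windows, summits, stricter peaks, equal list lengths, the replicate label as a block, a stricter overlap and each library left out.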

Additional observations from a re-analysis of the deposited data

How the results depend on the processing

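Of the 7 bone factors with a peak in any knockdown library, the count was 5 for the gene span alone, 7 with 10 kb around the gene, 7 for summits in the window, and 6 to 7 with each library left out. Peaks with a false discovery rate of at most 5% gave 7 for knockdown and 0 for control. Peaks with a score of at least 100 gave 1 and 0, with 2852 of all genes hit in knockdown libraries in place of 12628. The 198 best-scored peaks of each list gave 0 and 0, with 502 genes. Leaving out single libraries gave 0 to 1 factors with a control peak, 0 being without control size3. The bone factors above all control libraries in every knockdown library numbered 2, 1 for the gene span alone, and 0 at the stricter rate, score and equal lengths. Over all genes that count was 558, and 0, 2 and 0 under those 3 settings, the stricter rate leaving 51 of the 4513 knockdown 2 peaks. Leaving out libraries gave 2 to 5 factors and 559 to 4744 genes, the highest values being those without knockdown 2, and 876 genes without knockdown size3. Shared regions at the bone factors, 7 in all, numbered 4 at the stricter rate, 0 at the stricter score, 0 at equal lengths, 3 with a reciprocal overlap of 50%, and 0 to 7 with single libraries left out. The cause was not tested.

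With the replicate block, 3 factors and 655 genes had more peaks in knockdown for every label. Labels alone do not show pairing. Deviations from the group means correlated over genes at -0.09, 0.23 and 0.17 for labels 1, 2 and size3. Between libraries of unlike label these correlations ran from -0.27 to 0.19. The like-label value was the highest for knockdown 2 and for knockdown size3, but not for knockdown 1. The smallest p of the paired sign-flip permutation test is 0.25. With equal list lengths the difference in mean peak number, knockdown minus control, was 0 for all 10 factors. With a score of at least 100 it was 0.333 for Runx2 and 0 for the other factors. With control peaks at Runx2 alone, a change of sign could hardly occur. Knockdown 2 and knockdown size3 peaks at these genes held 10 to 34 reads, which limits the precision of each.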
